A study of Mus musculus with 48 samples.

Results

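Macrophages of the mouse peritoneal cavity were compared between 2 origins, the ascites of tumour-bearing mice and the exudate that follows thioglycolate, in libraries that had received only the vehicle of a drug experiment. The comparison took all 3 vehicle libraries of each origin by their labels, 6 of the 48 libraries of the series, and no measured value was used to choose them. Of 51789 genes with a line in the count table, 16955 had enough counts to be tested. The series as a whole asks how the compound AP-3-84 changes gene expression in 8 kinds of macrophage. The ascites group held F4/80+ cells, taken with beads from peritoneal washes of C57BL/6 mice that had received the ovarian tumour line ID8 45 days before. Their genotype label is B6(Cg)-Tyrc-2J/J, the name of an albino line on the same background. The thio group held F4/80+ cells taken the same way from wild-type C57BL/6 mice 4 days after 1 ml of 3% thioglycolate into the peritoneum, an irritant that draws monocytes into the cavity. Cells of both groups were kept for 4 h with DMSO, in the amount that carries 10 µM of the compound in the treated groups. Tumour, irritant, genotype label and time after injection all differ between the groups, so the part of each in a difference cannot be told apart. The labels do not say that the replicates came from separate mice, and p-values then measure only the spread between these libraries, which may be technical.

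A macrophage takes much of its gene expression from its surroundings. Interferons act through transcription factors of the STAT and IRF families and switch on a large antiviral and antigen-presenting programme. Macrophages that take up lipid, matrix or dying cells run another programme, with the transmembrane glycoprotein gene Gpnmb, the bridging protein gene Mfge8, fatty acid binding proteins and lysosomal enzymes among its best known members. Thioglycolate macrophages are monocyte-derived cells filled with ingested medium, while ascites fluid holds tumour cells, mesothelial cells, cytokines and both resident and recruited macrophages.

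Library totals ran from 15936012 to 19417581 counts, and the biological coefficient of variation, the spread between replicates beyond counting noise, was 0.168 over the 12 peritoneal libraries. The 10 genes with most counts held 14.6% to 15.4% of an ascites library and 19.99% to 20.6% of a thio library. Core macrophage markers were high in both groups, with a summed level of 29806 to 31601 CPM in ascites libraries and 35182.5 to 35666 CPM in thio libraries. CPM are counts scaled to a common library size of 1e6. Lyz2, the lysozyme gene, made up most of that sum, at 26356, 24554 and 26206 CPM in ascites and 30719.7, 31047 and 30646 CPM in thio libraries. Other members differed more and in both directions, such as Cd68 (log2 fold change -1.09), Cd14 (1.46) and Fcgr1 (3.34). Of the 12 markers 4 were called higher in ascites, 3 were called lower and 5 were not called. Adgre1, which encodes the F4/80 antigen of the sort, stood at 234, 241 and 243 CPM in ascites and at 249.9, 254 and 229 CPM in thio libraries, and those ranges overlapped. In bulk RNA, fewer cells of a type and less RNA per cell cannot be told apart.

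Markers of other cell types were not equal in the groups. The list of 22 epithelial, ovarian tumour and mesothelial markers summed to 1183 to 1253 CPM in ascites libraries and to 405 to 452 CPM in thio libraries. Without Slpi, which macrophages also express, it summed to 248 to 297 CPM and to 6.29 to 7.59 CPM. Of its 17 members tested, 15 were called higher in ascites and 0 lower. But 4 of the 17 (Msln, Epcam, Upk1b and Bnc1) had 3 counts or fewer over the thio group. With so few there, they could only be called higher. The keratin gene Krt18 stood at 75.5, 67.2 and 77.1 CPM in ascites and at 1.15, 0.486 and 0.217 CPM in thio libraries, Krt8 at 52.3, 45.7 and 56.8 and 1.79, 1.7 and 0.705 CPM, and Krt19 at 23.7, 31.8 and 37.7 and 0.447, 0 and 0.108 CPM. Msln, which encodes the mesothelial surface protein mesothelin, had 616 counts over the 3 ascites libraries and 0 over the 3 thio libraries, which puts it at least 187-fold higher when the empty group is set to 3 counts in all. Epcam, an epithelial marker, had 36 counts against 0. In the other direction, T and NK cell markers summed to 101 to 114 CPM in ascites and 492 to 526 CPM in thio libraries, most of it Il7r (82.3, 96.7 and 85.2 against 463, 501 and 488 CPM), and 5 of the 20 (Gzma, Gzmb, Ncr1, Nkg7 and Trac) were at 0 in the thio group. B cell markers summed to 23.7 to 31.1 and 80.3 to 82.7 CPM, and Cd22 made up most of the thio sum (12.5, 12 and 14.3 against 66.5, 66.6 and 67.2 CPM). Of the T and NK cell list 5 members were tested, of which 2 were called lower in ascites and 3 were not called. Of the B cell list 7 were tested, of which Cd22 was called lower and 6 were not called. Neutrophil markers summed to 174 to 213 and 322 to 329 CPM. Only 6 of those 16 were tested, and 4 were called lower in ascites, such as Mmp8 (35.4, 32.7 and 34.9 against 119, 113 and 129.7 CPM). Csf3r and Cxcr2 were not called, and Elane, Mpo, Ngp and Stfa2l1 were at 0 in both groups. Fibroblast markers summed to 44.5 to 63.1 CPM in ascites and 20.4 to 33.4 CPM in thio libraries. The part of other cells in the differences below was not tested.

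**Figure D1:**
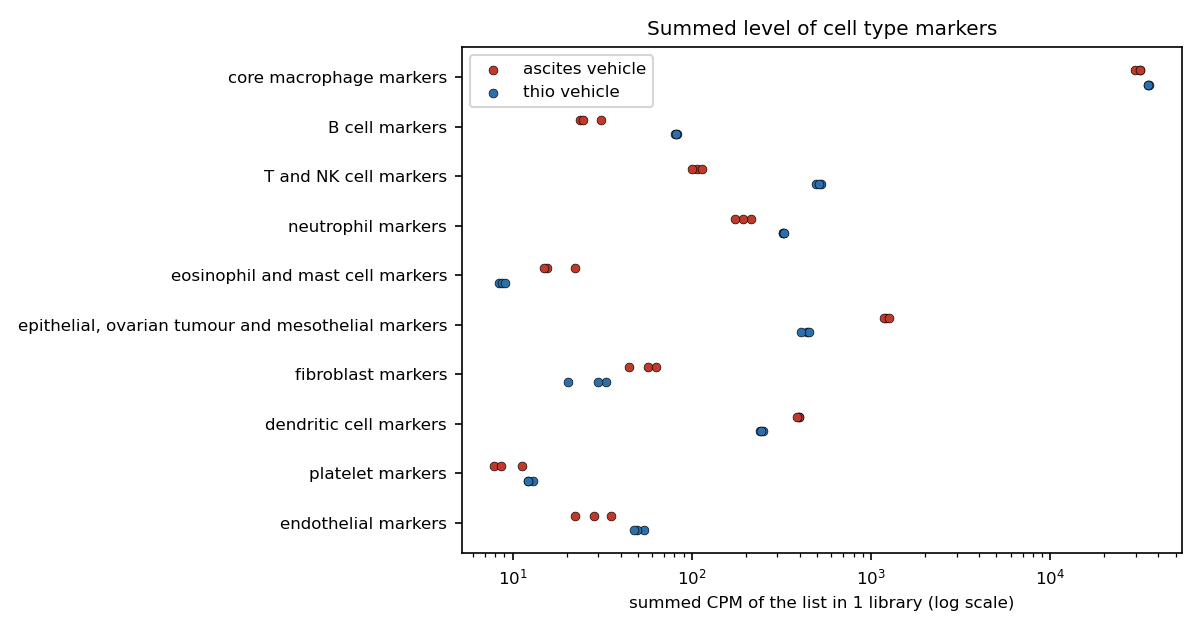
Summed level of each marker list (horizontal axis, CPM, log scale) in the 3 ascites (red) and 3 thio (blue) vehicle libraries, 1 point per library. The epithelial and mesothelial list lies higher in ascites (1183 to 1253 against 405 to 452 CPM), and the T and NK cell list lies higher in thio (492 to 526 against 101 to 114 CPM). Most of the T and NK cell sum is Il7r.

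A gene counted as called when edgeR's two-sided quasi-likelihood test gave an adjusted p (Benjamini-Hochberg) under 0.05. Each SE given below was derived from that test, as the absolute log2 fold change over the square root of its F statistic. It was not estimated separately. Ascites and thio macrophages differed in 5716 of 16955 genes (33.7%), of which 3444 were higher in ascites (20.3% of genes tested) and 2272 were lower (13.4%). The counts of called members in each list below are to be read against these shares. Rises were larger than falls. At 2-fold or more, 1714 genes were called higher (10.1%) and 638 lower (3.76%). At a change of 4-fold or more, 1053 genes were called higher and 203 lower, and at 64-fold or more 159 and 7. Scaling by total counts moved the share of calls that were higher from 60.3% to 70.3% and the median log2 fold change of all genes tested from 0.05 to 0.14. All 3 ascites libraries lay above all 3 thio libraries for 4524 genes (26.7%) and below them for 3461 (20.4%). These shares are the background for each lack of overlap given below. The rule for the 15 largest rises and 15 largest falls required it. Lyz2, Psap and Fth1 were among the 5 genes with most counts in each group, with Ctss and Actb in ascites and Ftl1 and Ctsd in thio.

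**Figure D2:**
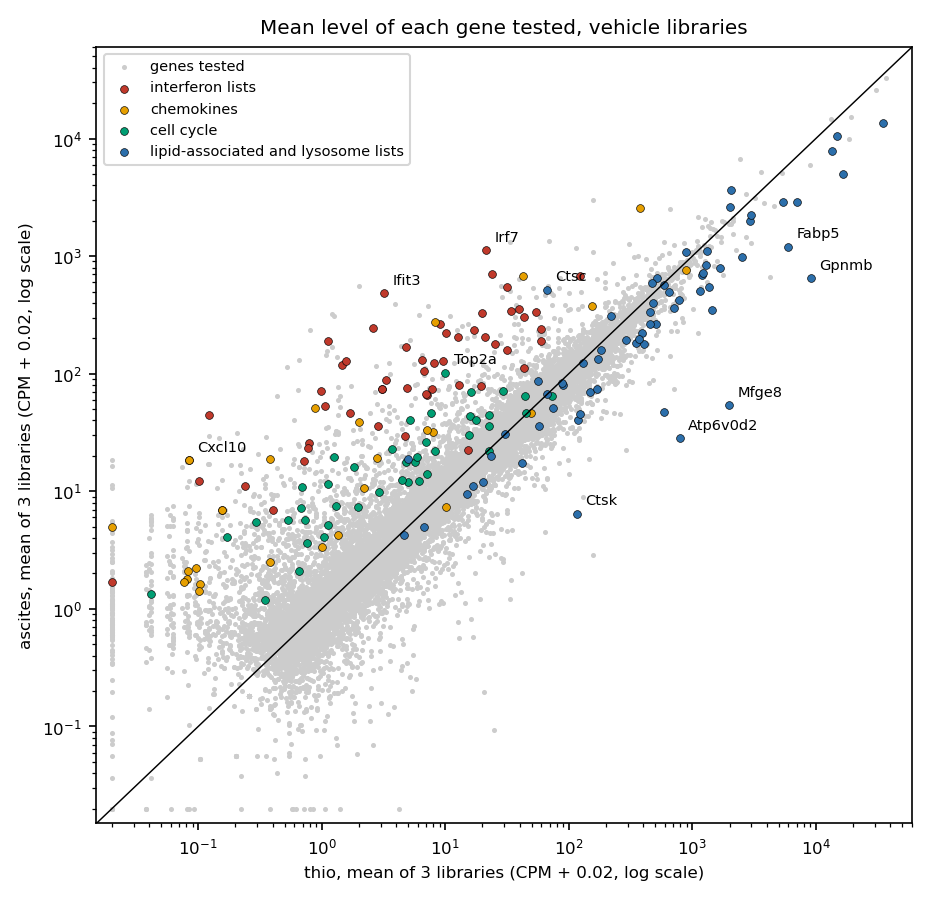
Mean level of each of the 16955 genes tested in thio (horizontal) and ascites (vertical) vehicle libraries, as CPM plus 0.02 on log scales, with 4 groups of lists in colour and the line of equal levels. Genes of the interferon lists (red) lie above the line, and most genes of the lipid-associated and lysosome lists (blue) lie below it, with Gpnmb and Mfge8 far from it.

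Gpnmb and Mfge8 stood higher in every thio library than in any ascites library. Gpnmb (ENSMUSG00000029816, chromosome 6, 49036546 to 49070929 in GRCm38) stood at 621, 644 and 689.7 CPM in the 3 ascites libraries and at 9143, 9274 and 9054 CPM in the 3 thio libraries. Mfge8 (ENSMUSG00000030605, chromosome 7, 79133768 to 79149060) encodes a bridge between phosphatidylserine on dying cells and integrins on the phagocyte, and stood at 51.7, 54.9 and 56.2 CPM in ascites and at 1978, 2016 and 1944 CPM in thio libraries. The groups lay far apart for both genes, with little spread within either. Gpnmb was 14.1-fold higher in thio (log2 fold change -3.81 with SE 0.065 and adjusted p 1.01e-16 in edgeR), and Mfge8 36.5-fold (log2 fold change -5.19 with SE 0.088 and adjusted p 1.01e-16 in edgeR).

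The list of lipid-associated macrophage genes fell together in ascites. Of its 25 members, which were all tested, 22 were called lower and 2 higher, with a median log2 fold change of -0.91 against 0.05 over all genes tested. Atp6v0d2, a macrophage and osteoclast subunit of the lysosomal proton pump, stood at 29, 28.9 and 26.7 CPM in ascites and at 766, 774 and 844 CPM in thio libraries. The fatty acid binding protein gene Fabp4 stood at 42.8, 53.2 and 45.8 CPM against 638, 508 and 612 CPM, and Fabp5 at 1217, 1183 and 1205 CPM against 5892, 5987 and 6128 CPM. No ascites library reached the level of any thio library for these genes. The lipid-sensing receptor Trem2 fell by less, from 679, 731 and 713 CPM in thio to 359.6, 338 and 385 CPM in ascites libraries, as did Spp1, which encodes osteopontin (log2 fold change -1.20). Cd36, the fatty acid and apoptotic cell receptor, was also lower in ascites (-1.20), and so was the lipid droplet coat gene Plin2 (-0.75). The lipoprotein gene Apoe fell from 13487 to 7806 CPM (log2 fold change -0.79 with SE 0.15 and adjusted p 0.00225 in edgeR), a call that was not made in the AP-3-84 libraries. One of the members called higher was Tfec, a transcription factor of the MITF family (18.1, 19.9 and 18.8 against 5.62, 4.13 and 5.15 CPM). Lgals1 was not called (-0.05, edgeR adjusted p 0.677).

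Lysosomal genes were lower in ascites as a group, with exceptions. Of 47 genes, 31 were called lower and 8 higher, with a median log2 fold change of -0.58. The collagen-degrading protease gene Ctsk stood at 4.79, 6.21 and 8.35 CPM in ascites and at 114, 117 and 118 CPM in thio libraries (log2 fold change -4.17 with SE 0.147 and adjusted p 2.43e-12 in edgeR). Ctsl, another cysteine protease, stood at 342, 367 and 345 CPM against 1503, 1366 and 1434 CPM. Psap, the precursor of the saposins, was among the 5 genes with most counts in both groups and stood at 13816, 13304 and 13455 CPM against 33659, 35551 and 35776 CPM. These proteases and the saposin precursor differed without overlap between the groups. The aspartic protease gene Ctsd stood at 4150.5, 5172 and 5771 CPM in ascites and 19161, 15591 and 14646 CPM in thio libraries (log2 fold change -1.71). The direction was opposite for Ctsc, whose product activates granule serine proteases and which stood at 502, 552 and 503 CPM in ascites against 66.2, 66.7 and 66.2 CPM in thio (log2 fold change 2.97 with SE 0.081 and adjusted p 1.8e-14 in edgeR). Npc2, the cholesterol carrier of the lysosome lumen, was also higher in ascites (0.84), while its membrane partner Npc1 was lower (-1.19). Neu1 and Asah1 were not called, with log2 fold changes of -0.08 and -0.17, but Asah1 was called lower in 4 of 14 other ways of processing the counts and in the libraries treated with AP-3-84. Among genes of the vacuolar proton pump, a family picked after its values were seen, 16 of 19 tested were lower and 1 was higher, from a log2 fold change of -4.82 for Atp6v0d2 to 0.62.

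Promoters of the lysosome list were read for the E-box GTCACGTG, the core of the element that the transcription factors TFEB, TFE3 and MITF bind in lysosomal genes. Either strand was searched from 250 bases before to 50 after the start site, in RefSeq promoters of GRCm38.p6. Of 36 members with a promoter in that table, 10 held it (27.8%), against 689 of 27025 genes overall (2.55%) and 503 of 11068 genes tested (4.54%). Among genes called at 2-fold or more it stood in 25 of 443 promoters of genes lower in ascites (5.64%), near the share of genes tested, and in 25 of 1233 of genes higher in ascites (2.03%). Its last 6 letters, CACGTG, form the general E-box, which 13 of the 36 members and 8.09% of all genes held. Of the falls named above, Ctsk and Psap held neither, and Ctsl held only CACGTG. GTCACGTG is known from lysosomal genes, so the share within the list describes its members. A match is a run of letters and not a shown binding site. The promoters of 3 members that were lower in ascites and held GTCACGTG follow. They are given from upstream of the start site, 5′ to 3′ on the gene's strand, with that E-box of either strand in capitals. Beside them stand their levels: Ctsd as above, Glb1, the lysosomal galactosidase, at 43.5, 45.1 and 48.9 against 125, 119.8 and 124 CPM, and Naglu, a heparan sulfate glucosaminidase, at 71.4, 67 and 70.2 against 149.5, 149 and 151 CPM.
Ctsd (chr7:142387878-142388077, minus strand): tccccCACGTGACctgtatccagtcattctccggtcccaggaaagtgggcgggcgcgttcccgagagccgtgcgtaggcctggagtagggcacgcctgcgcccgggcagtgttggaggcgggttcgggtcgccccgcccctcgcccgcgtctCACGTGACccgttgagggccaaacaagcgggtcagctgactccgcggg
Glb1 (chr9:114400988-114401075, plus strand): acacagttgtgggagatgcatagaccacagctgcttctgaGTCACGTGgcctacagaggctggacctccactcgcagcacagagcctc
Naglu (chr11:101069979-101070066, plus strand): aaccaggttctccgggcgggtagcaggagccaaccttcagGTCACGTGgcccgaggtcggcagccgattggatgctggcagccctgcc

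The windows of Gpnmb and Mfge8 did not hold GTCACGTG. Of the transcription factors themselves, Tfe3 was slightly lower in ascites (67.7, 67.9 and 73.2 against 82.8, 81.6 and 82.3 CPM), Mitf was lower too (log2 fold change -0.19, edgeR adjusted p 0.0333), and Tfeb was not called, with overlapping levels of 5.09, 11.3 and 15.6 and 22.6, 13.4 and 14.6 CPM. The call of Mitf was lost in 7 of 14 other ways of processing the counts and that of Tfe3 in 4, and Tfeb was called in 1 of them.

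Genes of sterol synthesis and of iron handling were also mostly lower in ascites. In the sterol list 13 of 23 tested genes were called lower and 1 higher, with a median log2 fold change of -0.47. The desaturase gene Sc5d stood at 21.1, 18.4 and 20.2 CPM in ascites and 49.5, 45.7 and 51.6 CPM in thio libraries, and Hmgcs1, which makes the precursor of mevalonate, at 125, 124 and 129.7 and 209.9, 208 and 219 CPM. Srebf2, the regulator of the pathway, was not called (-0.12, edgeR adjusted p 0.449). In the list of heme and iron handling 14 of 23 tested genes were lower and 2 higher. Tfrc, the transferrin receptor, stood at 17.2, 25.7 and 24.7 CPM in ascites against 306, 268 and 296 CPM in thio libraries. The ferritin light chain gene Ftl1 and the heme exporter gene Flvcr1 were lower, with log2 fold changes of -0.90 and -1.63. Cp, the ferroxidase ceruloplasmin, went the other way, with 49.6, 48.8 and 48.8 CPM in ascites and 2.75, 2.85 and 3.53 CPM in thio libraries.

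The remaining genes among the 15 largest falls held 1 hypoxia-type regulator and several genes of matrix, lipid and clotting. Epas1, which encodes HIF-2α, stood at 9.71, 9.41 and 7.59 CPM in ascites and at 137, 126 and 128 CPM in thio libraries. Mamdc2, a secreted matrix-associated protein gene, stood at 3.29, 2.71 and 2.55 CPM against 150.3, 163 and 156 CPM. Tgfb2, a growth factor that resident peritoneal macrophages express, stood at 17.3, 13.1 and 11.6 CPM against 102, 101 and 101 CPM. The rule that picked these falls required every thio library to stand above every ascites library. Ahnak2, Plpp3, Lrrc17, Tspan13, F7 (coagulation factor VII) and Gadd45b completed the set, with log2 fold changes from -3.28 to -2.46. Leaving out thio replicate 1 moved the log2 fold changes of the 15 falls by between -0.03 and 0.06.

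The interferon programme was higher in ascites throughout the list. All 34 genes of the type I interferon-stimulated list were tested, and 34 were called higher, from a log2 fold change of 1.37 for Irf9 to 8.72 for Ifit3b, with a median of 4.09. Oasl1, of the antiviral oligoadenylate synthetase family, stood at 171, 176 and 163 CPM in ascites and at 4.53, 4.68 and 5.04 CPM in thio libraries (log2 fold change 5.16 with SE 0.093 and adjusted p 1.39e-16 in edgeR). Rtp4, an interferon-induced chaperone gene, stood at 256, 275 and 266 CPM against 9.7, 8.44 and 9.11 CPM (log2 fold change 4.87 with SE 0.084 and adjusted p 1.01e-16 in edgeR). Rsad2, which encodes the antiviral enzyme viperin, stood at 539.8, 581 and 502 CPM against 35.1, 29.4 and 29.9 CPM. No library of one group came near the other group in these genes. Irf7, the amplifier of the type I response, stood at 1089, 1087 and 1173 CPM in ascites and 26.3, 18 and 19.9 CPM in thio libraries. The receptor chains differed far less. Ifnar1 stood at 43.4, 44.6 and 45.1 against 34.4, 34.5 and 37.7 CPM, Ifnar2 was higher by 0.31 and Ifngr1 by 0.18 on the log2 scale, and Ifnb1 had too few counts to be tested. The call of Ifngr1 was lost in 12 of the 14 alternatives.

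Genes that interferon-γ induces rose as well. Of the 22, 20 were tested and 20 were called higher, with a median log2 fold change of 4.36. For 2 of the 20, with 3 counts or fewer over the thio group, no other call was possible. The guanylate-binding protein gene Gbp2 stood at 74.7, 80.6 and 72.3 CPM in ascites and at 4.92, 4.49 and 5.32 CPM in thio libraries, and the immunity-related GTPase gene Iigp1 at 129, 136 and 122 and 2.43, 1.15 and 1.08 CPM. Irf1 stood at 194, 188 and 190.2 CPM against 57.6, 58.2 and 62.4 CPM, and Fcgr1, the high-affinity IgG receptor, at 334, 348 and 346 CPM against 35.8, 33.9 and 31.7 CPM. The smallest rise on the list was that of Wars, a tRNA synthetase gene (0.54). The list shares Cxcl9 and Cxcl10 with the chemokine list. The 2 members that were not tested were Nos2, the inducible nitric oxide synthase, with 6 counts over the ascites group and 0 over the thio group, and Ido1, the tryptophan-degrading enzyme, with 2 and 4 counts.

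Promoters of these lists often held the interferon-stimulated response element, searched on either strand as GAAA, any 2 bases, and GAAA. It stood in 14 of 24 promoters matched for the type I list and in 11 of 14 for the interferon-γ list, against 3.99% of all 27025 genes. Among genes called at 2-fold or more it stood in 124 of 1233 promoters of genes higher in ascites (10.1%) and in 14 of 443 of genes lower in ascites (3.16%), and in 4.03% of genes tested. The related STAT element TTCNNNGAA stood in 5 of the 24 and 8 of the 14, against 9.55% of all genes. Among genes called at 2-fold or more it stood in 9.33% of those higher in ascites and in 11.3% of those lower. Both shares are near the 8.55% of genes tested. The lists were written with the induction by interferon in mind, so the share within them describes the members. Stretches of 4 such promoters follow, with every match on either strand in capitals, as 1 run of capitals where matches overlap. Ifit1 encodes a protein that binds viral RNA and stood at 117, 122 and 114 CPM in ascites against 2.11, 0.972 and 1.25 CPM in thio. Isg15, a ubiquitin-like modifier gene, stood at 236, 264 and 201 CPM against 18.2, 18.2 and 14.7 CPM.
Ifit1 (chr19:34640745-34640853, plus strand): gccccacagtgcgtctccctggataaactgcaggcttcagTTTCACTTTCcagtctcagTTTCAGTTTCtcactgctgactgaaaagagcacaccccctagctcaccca
Isg15 (chr4:156200835-156200936, minus strand): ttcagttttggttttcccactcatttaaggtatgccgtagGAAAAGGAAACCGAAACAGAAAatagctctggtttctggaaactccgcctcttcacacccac
Rsad2 (chr12:26456523-26456612, minus strand): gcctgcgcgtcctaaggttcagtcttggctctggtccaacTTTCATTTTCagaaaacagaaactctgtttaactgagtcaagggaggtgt
Gbp2 (chr3:142620564-142620653, plus strand): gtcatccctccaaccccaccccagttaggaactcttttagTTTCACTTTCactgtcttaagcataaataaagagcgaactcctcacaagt

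Some of the largest rises were made smaller by the level of 1 thio library. The 15 largest were Ms4a4c, Ly6a, Ly6i, Ly6c2, Ifit1bl1, Ifi206, Ifit2, Ifit3, Tm4sf1, Clu, Ifi213, Krt18, Atp1b1, Slfn1 and Ifi44. Ly6a, a surface protein gene that interferon induces, stood at 543, 560.4 and 581 CPM in the ascites libraries and at 5.43, 0.243 and 0.271 CPM in the thio libraries, with replicate 1 far above the other 2. Ms4a4c stood at 238, 244 and 217 CPM against 1.98, 0.243 and 0.108 CPM, with the same replicate highest. Over the 20 genes called at 64-fold or more with at least 50 CPM in ascites, thio replicate 1 held a median of 1.25% of the ascites level, against 0.345% and 0.459% in replicates 2 and 3 and 0.341% to 0.425% in the 3 thio libraries treated with AP-3-84. It was the highest of the vehicle thio libraries for 19 of the 20. Without it, the log2 fold change went from 8.21 to 11.05 for Ly6a, from 8.29 to 10.34 for Ms4a4c and from 7.28 to 8.05 for Ifit3. It moved by more than 1.5-fold for 10 of the 15 rises and for 0 of the 15 falls, and all 30 calls were made without it. All 15 rises were larger without that library, by 0.26 to 2.84 on the log2 scale. Reads of near-identical neighbours can also be split between them: the last 500 bases of transcripts shared 400 runs of 30 bases between Ly6c1 and Ly6c2 (52.9% of the smaller set) and 592 between Tgtp1 and Tgtp2 (72.9%), so levels of those pairs are uncertain.

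**Figure D3:**
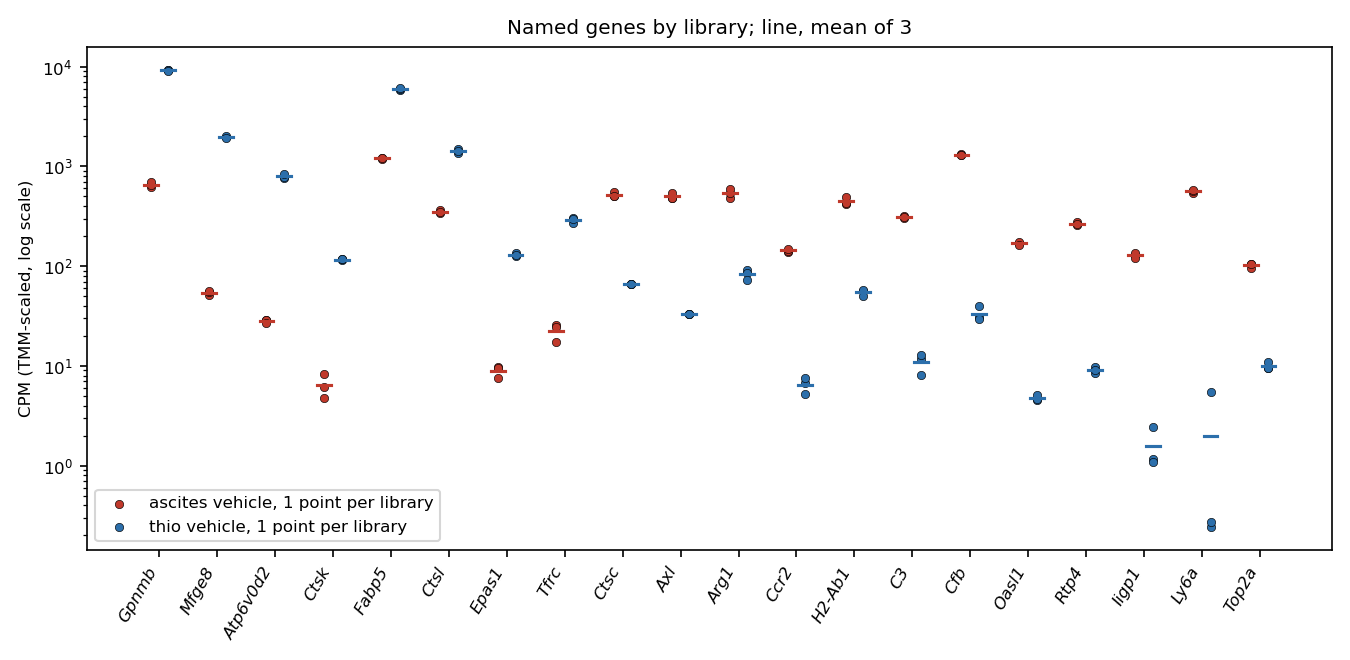
Level of 20 named genes in each vehicle library (vertical axis, CPM, log scale), with 3 ascites (red) and 3 thio (blue) points per gene and a line at the mean of 3. The groups do not overlap for any of the 20, which were picked from the named genes. Over all genes tested, 26.7% had no overlap with ascites above and 20.4% with ascites below. Ly6a in thio shows 1 library at 5.43 CPM above the other 2 at 0.243 and 0.271 CPM.

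Antigen presentation genes were higher in ascites for both classes. In the class I list 13 of 17 genes were called higher and 0 lower, with a median log2 fold change of 1.46. H2-K1, a classical class I heavy chain, stood at 2449, 2529.6 and 2602 CPM in ascites and at 692, 622 and 652 CPM in thio libraries, and H2-Q7 at 246, 263 and 252 and 12.4, 14.7 and 13.5 CPM. The peptide transporter gene Tap1 stood at 151, 156 and 148 CPM against 24.6, 24.1 and 25.2 CPM. The class I genes H2-Q4 and H2-T23 and the chaperone gene Calr were not called, and H2-K1 and H2-D1 shared 232 runs of 30 bases near their 3′ ends (19.1% of the smaller set). In the class II list 9 of 13 tested genes were higher and 1, the protease gene Ctss, was lower. H2-Ab1 stood at 422, 428 and 489 CPM in ascites and 56.4, 57.3 and 50.5 CPM in thio libraries, H2-Eb1 at 319, 328 and 405 and 34.1, 39 and 34.5 CPM, and the invariant chain gene Cd74 at 276, 318 and 319.6 and 64.7, 56.5 and 55.5 CPM. Every ascites library lay above every thio library for these 3 genes. The co-activators of the 2 classes were low in both groups and higher in ascites, with Nlrc5 at 24.7, 25.3 and 27.7 against 5.68, 4.37 and 5.64 CPM and Ciita at 6.17, 5.12 and 5.04 against 0.83, 1.88 and 1.79 CPM.

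Chemokines, which recruit other leukocytes, were also mostly higher in ascites. Of 26 tested, 23 were called higher in ascites and 1 lower, with a median log2 fold change of 4.01. Of the 26, 5 had 3 counts or fewer over the thio group and could only be called higher. The monocyte attractant gene Ccl2 stood at 51.5, 56.8 and 45.2 CPM in ascites and at 1.08, 0.486 and 1.03 CPM in thio libraries, and Ccl5, which attracts T cells, at 289, 273 and 259.6 and 10.8, 6.38 and 7.38 CPM. Ccl6 stood at 2498, 2486 and 2698 CPM against 378, 375 and 368 CPM, and Ccl9 at 652, 664 and 708 CPM against 45.6, 44.5 and 37 CPM. The groups were apart in each of these. Cxcl10, the interferon-induced ligand of CXCR3, had 1020 counts over the ascites group and 3 over the thio group, a ratio of 310.2 with a 95% counting interval of 105.8 to 1507. All 3 thio counts were in replicate 1, and the other 2 thio libraries had 0. Ccl12, another monocyte attractant, had 276 counts against 0, at least 83.9-fold higher. Pf4 was the member called lower (768, 719 and 786 against 902, 893 and 892 CPM, lost in 3 of the 14 alternatives), and Ccl8 and Cxcl14 were not called.

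Receptors for such ligands moved both ways. Of 19 tested, 9 were higher and 5 lower. Ccr2, the CCL2 receptor of monocytes, stood at 138, 143 and 149 CPM in ascites and 6.7, 5.22 and 7.54 CPM in thio libraries. Cx3cr1, the fractalkine receptor, stood at 213, 206 and 222 against 28.9, 28.4 and 25.3 CPM. Both stood higher in every ascites library than in any thio library. Cxcr4, the CXCL12 receptor, was higher in thio, at 173, 149 and 168 CPM against 67.9, 70.1 and 70.5 CPM in ascites.

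Genes of monocyte-derived and small peritoneal macrophages were higher in ascites. Of 19 tested, 16 were called higher and 2 lower, with a median log2 fold change of 2.20. Beside Ccr2, the haptoglobin gene Hp stood at 119, 122 and 124 CPM against 6.07, 5.34 and 5.32 CPM and the lectin gene Clec4a1 at 209.7, 209 and 232 against 60.6, 58.1 and 56.9 CPM. The chitinase-like gene Chil3 went the other way, at 1.32, 0.197 and 0.163 CPM in ascites against 16.3, 16.6 and 17 CPM in thio libraries, and the integrin gene Itgax was lower (log2 fold change -0.36). Of 28 large resident peritoneal macrophage genes, 6 were higher, 10 lower and 12 not called, and the share higher is near the 20.3% of all genes tested. Gata6, the transcription factor that defines those cells, differed little (14.9, 13.4 and 14.3 against 12.5, 11.1 and 10.2 CPM, edgeR adjusted p 0.0433), and its call was lost in 11 of the 14 alternatives and not made in the AP-3-84 libraries. Timd4, a phosphatidylserine receptor, was low in both groups and higher in ascites (4.49, 6.11 and 5.04 against 1.28, 1.15 and 0.814 CPM), and the scavenger receptor gene Marco stood at 397, 366 and 389 against 40.8, 33.8 and 36.7 CPM. Cd93, which takes part in uptake and adhesion, and Vsig4, the complement receptor of tissue macrophages, were higher in thio, at 656, 689 and 620.4 against 142, 138 and 145 CPM and at 159.5, 153 and 150.3 against 54.8, 54.8 and 56.3 CPM. Wt1 and Cxcl13, both higher in ascites, are also expressed by mesothelial or stromal cells, and Wt1 is on the mesothelial list above.

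Cell cycle genes were higher in ascites in 39 of 42 cases and lower in 0, with a median log2 fold change of 1.90. Top2a, the topoisomerase of dividing cells, stood at 105, 95.5 and 105 CPM in ascites and at 9.58, 9.47 and 11 CPM in thio libraries (log2 fold change 3.34 with SE 0.124 and adjusted p 7.74e-13 in edgeR). The proliferation marker gene Mki67 stood at 48, 46.8 and 43.5 CPM against 7.41, 7.47 and 7.97 CPM and the mitotic kinase gene Cdk1 at 42.1, 39.3 and 39.3 CPM against 4.41, 6.44 and 4.5 CPM. Each of these was apart between the groups. Pcna, the replication clamp, was not called, though it was in 2 of the 14 alternatives, and stood at 68.5, 69.5 and 57 against 76.4, 70.5 and 74.3 CPM, and neither were Cenpa and Mybl2. The epithelial and mesothelial markers moved with this list, at 248 to 297 CPM without Slpi in ascites against 6.29 to 7.59 CPM in thio, and their part in it was not tested.

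**Figure D4:**
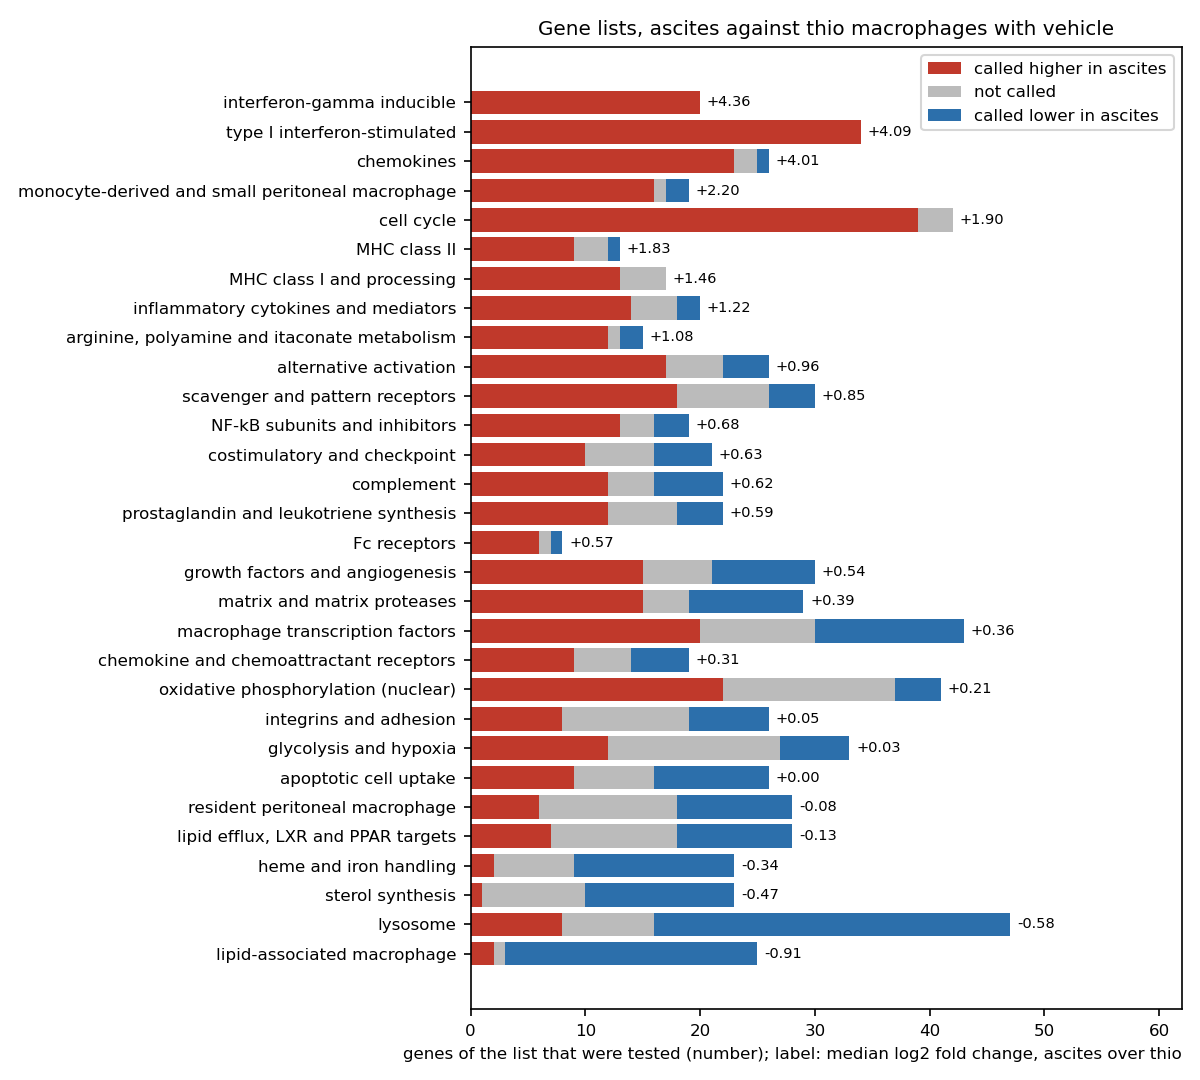
Number of tested genes called higher (red), not called (grey) and called lower (blue) in ascites for each of the 30 lists of response genes, ordered by the median log2 fold change that is printed beside each bar. The interferon, chemokine and cell cycle lists are nearly all red, and the lipid-associated (22 of 25 lower) and lysosome (31 of 47 lower) lists are mostly blue.

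Inflammatory mediators and their NF-κB regulators were mostly higher in ascites. Of 20 mediators tested, 14 were higher and 2 lower, and of 19 NF-κB subunits and inhibitors 13 were higher and 3 lower. Il1b stood at 18.2, 12.3 and 12.4 CPM in ascites and 0.575, 0.668 and 1.36 CPM in thio libraries, its antagonist gene Il1rn at 209, 213 and 213 and 49.5, 62.1 and 59.1 CPM, and Tnf at 12.6, 10.3 and 12.6 and 6.89, 5.41 and 5.53 CPM. The inflammasome sensor gene Nlrp3 stood at 19.8, 18.6 and 13.9 against 4.41, 4.55 and 4.67 CPM, and the IL-18 inhibitor gene Il18bp at 59.9, 61.6 and 61.7 against 8.49, 8.44 and 7.81 CPM. The inhibitor genes Nfkbia and Nfkbie rose by 1.24 and 2.16 on the log2 scale, while Tnfaip3, which encodes the ubiquitin-editing inhibitor A20, was lower (3.89, 5.91 and 5.53 against 8.68, 7.96 and 7.59 CPM, lost in 3 of the 14 alternatives). Tgfb1 and Tnfsf12 were the mediators called lower. Il6 and Il10 had too few counts to be tested, with 19 and 13 counts in the ascites group against 3 and 2 in the thio group.

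Markers of alternative activation rose too. Of 26 tested, 17 were higher in ascites and 4 lower, and the share lower is near the 13.4% of all genes tested. Arg1, which splits arginine to urea and ornithine, stood at 479, 536 and 589 CPM in ascites and at 90.6, 84.6 and 72.4 CPM in thio libraries (log2 fold change 2.70 with SE 0.094 and adjusted p 5.23e-13 in edgeR). Folr2, the folate receptor of tissue macrophages, stood at 197, 196 and 213 against 35.3, 38.3 and 38.2 CPM. Mrc1, the mannose receptor, and Retnla were higher by only 0.59 and 0.22 on the log2 scale. The largest fall on the list was that of Chil3, whose levels are given above (log2 fold change -4.95, and -6.47 without ascites replicate 1, its highest ascites library). The growth factor gene Igf1 was also lower in ascites (483, 488 and 475 against 809, 764 and 814 CPM), and Tgm2 was not called (-0.01). Among 15 genes of arginine, polyamine and itaconate metabolism 12 were higher and 2 lower. Acod1, the itaconate-producing enzyme of activated macrophages, stood at 119.5, 122 and 107 CPM against 3.77, 1.88 and 2.5 CPM, and Ass1, which rebuilds arginine from citrulline, at 61.2, 77.6 and 69.8 against 3.45, 2.85 and 1.79 CPM. The polyamine regulator gene Azin1 fell (log2 fold change -0.82).

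Uptake, complement and scavenger genes changed in a mixed way. Of 26 genes of apoptotic cell uptake 9 were higher and 10 lower in ascites. Axl, a receptor tyrosine kinase that reads the bridging ligand GAS6, stood at 485, 484 and 539.5 CPM in ascites and at 33.1, 33.3 and 33.1 CPM in thio libraries (log2 fold change 3.92 with SE 0.087 and adjusted p 1.31e-15 in edgeR). Its relative Mertk was slightly lower (205, 209 and 221 against 269, 271 and 279.7 CPM), and so were the ligand gene Pros1 (-1.06) and the receptor gene Lrp1 (-1.70). Ascites libraries stood above thio libraries in Axl and below them in Mfge8 in all libraries. In the complement list 12 of 22 were higher and 6 lower. C3, the central component, stood at 315, 306 and 307 CPM against 11.7, 12.8 and 8.03 CPM, and Cfb, the protease of the alternative pathway, at 1344, 1299 and 1295 CPM against 39.7, 30.7 and 29.3 CPM. C1qa, C1qb and C1qc rose by 1.15, 0.85 and 0.79 on the log2 scale. Among 30 scavenger and pattern receptors 18 were higher and 4 lower, and the share lower is near the 13.4% of all genes tested. Clec4n, which encodes the fungal receptor dectin-2, stood at 546, 537 and 575 CPM against 32.1, 25.3 and 27.4 CPM, and Msr1, the class A scavenger receptor, at 716, 724 and 696 against 199, 199 and 193 CPM.

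Genes of energy metabolism changed by less than 2-fold for the most part. In the glycolysis and hypoxia list 12 of 33 genes were higher and 6 lower, against 20.3% and 13.4% of all genes tested. Its median log2 fold change was 0.03, and -0.01 with median-ratio scaling. Pgk1, a glycolytic kinase gene, stood at 172, 169 and 179 CPM in ascites and 98, 99.5 and 98.1 CPM in thio libraries, and Hif1a at 134, 120.5 and 123 and 68, 67.7 and 81.3 CPM, while Aldoa and Ldha were not called. Hk3 and Pgam1 were lower in ascites, with log2 fold changes of -1.15 and -0.50. Of 41 nuclear genes of oxidative phosphorylation 22 were higher and 4 lower, counts that were 16 and 5 with median-ratio scaling and 27 and 2 with scaling by total counts, and no member passed 2-fold.

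Genes of secreted growth factors, matrix and lipid mediators were divided. Of 30 growth factor and angiogenesis genes 15 were higher and 9 lower. Hbegf, a ligand of the EGF receptor, stood at 27.9, 29 and 33.7 CPM in ascites and 4.28, 4.31 and 3.47 CPM in thio libraries, and Gdf15 at 6.05, 7.54 and 7 and 30.9, 27.7 and 35.3 CPM. Vegfa was not called (-0.34, edgeR adjusted p 0.154, called lower in 3 of the 14 alternatives), and Vegfb was lower (-1.48). Of 29 matrix and protease genes 15 were higher and 10 lower. Timp1, a metalloprotease inhibitor, stood at 45.7, 45.8 and 48.7 against 2.43, 2.61 and 2.33 CPM, Sparc at 189.6, 193 and 218 against 11.7, 18 and 15.6 CPM, and the macrophage elastase gene Mmp12 at 1131, 1144 and 1139 against 2192, 2333 and 2299 CPM. Fibroblast markers, at 44.5 to 63.1 CPM in ascites and 20.4 to 33.4 CPM in thio, moved with Sparc, Timp1 and Col4a2 (4.65). In the AP-3-84 libraries the fibroblast sums overlapped, at 46.04 to 56.65 CPM in ascites and 32.53 to 47.97 CPM in thio. Of the 6 fibroblast markers called higher with vehicle, 3 were called higher there. The part of fibroblasts in the values of Sparc, Timp1 and Col4a2 was not tested. Of 22 prostaglandin and leukotriene genes 12 were higher and 4 lower. Ptgs1, a cyclooxygenase, was higher in ascites (1.96) and Hpgds, the prostaglandin D synthase of macrophages, was lower (-1.11). Among 21 costimulatory and checkpoint genes tested 10 were higher and 5 lower. The costimulator gene Cd86 stood at 28.8, 29.7 and 22.6 against 5.75, 4.43 and 4.23 CPM, and Vsir, which encodes the checkpoint protein VISTA, at 158, 157 and 161 against 389.7, 406 and 394 CPM. Among transcription factors of macrophages 20 of 43 were higher and 13 lower. The lipid regulator gene Pparg, low in both groups, stood at 6.71, 7.24 and 5.26 against 22, 18.1 and 19.1 CPM.

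The same populations were compared in the 6 libraries that had received AP-3-84, which are other libraries than the vehicle ones. The labels do not say whether treated and vehicle cells came from the same mice or the same pools. Both contrasts also came from 1 fit, with the filter, scaling and estimates of spread in common, so their calls are not independent. There 6234 genes (36.8%) were called, 3875 higher (22.9%) and 2359 lower (13.9%) in ascites. Ascites replicate 1 of these stood apart, with 20388 genes detected against 22676 and 22737 in the other 2, and without it 5799 genes were called. Of the 3444 vehicle rises 3024 (87.8%) were called higher there and 4 lower, and of the 2272 falls 1716 (75.5%) were called lower and 3 higher. Gpnmb differed by a log2 fold change of -3.77 and Mfge8 by -5.17 in the treated libraries, against -3.81 and -5.19 with vehicle. The 34 type I interferon genes were all called higher there as well, as were the 20 tested interferon-γ genes, and 20 of the 22 lipid-associated falls were called lower.

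**Figure D5:**
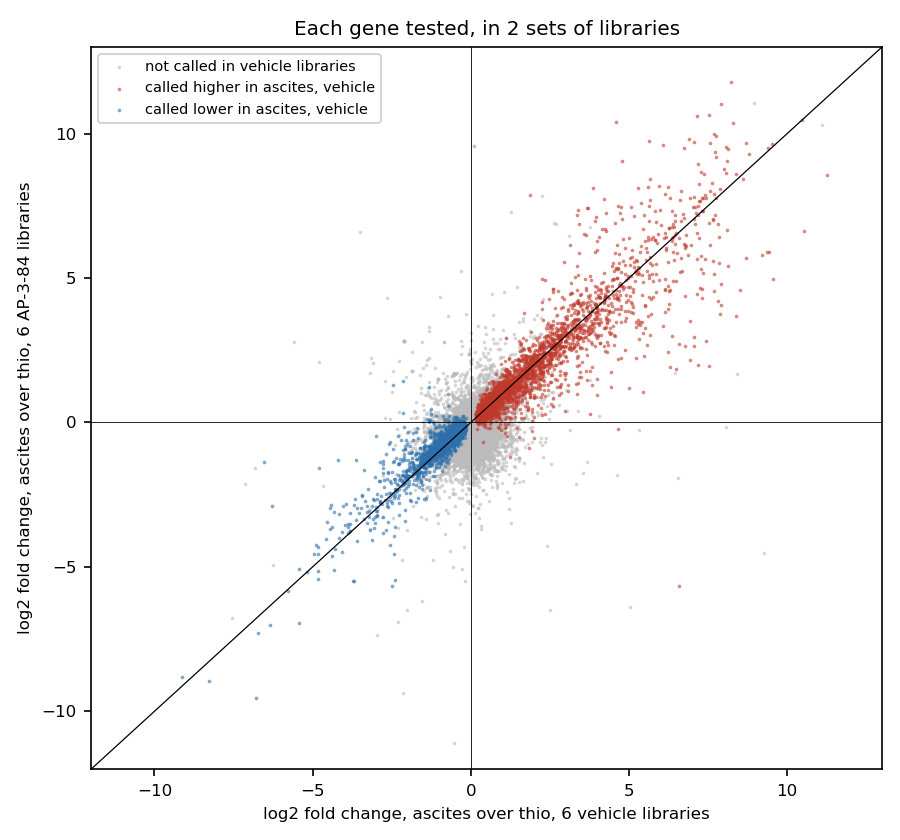
Log2 fold change of ascites over thio for each of the 16955 genes tested, in the 6 vehicle libraries (horizontal) and in the 6 AP-3-84 libraries (vertical), coloured by the vehicle call, with the line of equal values. Of the vehicle rises (red) 3024 of 3444 were called higher in the treated libraries, and of the falls (blue) 1716 of 2272 were called lower.

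Genes that bear on the genotype label were read as well. Tyr, whose mutation gives the albino coat, is a pigment cell gene and stood at 0.539, 0.69 and 0.326 CPM in ascites and 0.511, 0.486 and 0 CPM in thio libraries, too low to check a point mutation or the label. Nnt, a mitochondrial transhydrogenase gene that is deleted in part in some C57BL/6 substrains, stood at 9.64, 8.77 and 9.49 CPM in ascites and 15.7, 14.9 and 12.7 CPM in thio libraries (log2 fold change -0.63, edgeR adjusted p 0.00602). It was detected in both, but these libraries read only the 3′ end of a transcript, so that does not show whether the gene is whole.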

How the data were processed

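The authors deposited whole-number counts per gene and library in 1 table of the series, described in its name as raw counts. Per the labels' protocols, 100 ng of RNA went into QuantSeq FWD libraries, which read the 3′ end of a transcript as single reads of 75 bases. The submitters' processing notes name RSEM, Bowtie2 and DESeq2 without a role, so the counts may be rounded estimates, and the genome build was not given in the sources used here. Coordinates and symbols come from GENCODE M21 (GRCm38), which held 51596 of 51789 gene IDs. Counts of the 12 peritoneal libraries were filtered (filterByExpr by group), scaled by TMM and fitted with edgeR 4.0.16 in R 4.3.3 with 1 mean per group and no block, and the contrast of the 2 vehicle groups was tested. Alternatives were other scalings, no filter, DESeq2 1.42.0, other sets of libraries, a replicate block, and leaving out libraries. Intervals and floors cover counting error only.

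The comparison, the 30 lists of response genes, the 11 marker lists and the naming rule were chosen with earlier results of these data known. The rule names Gpnmb, Mfge8, Tyr and Nnt, the 15 called genes that rose most and the 15 that fell most (average log2 CPM at least 5, no overlap between groups), the 5 most abundant genes of each group, and, per list, up to 5 called genes each way by p and up to 3 abundant genes not called. Other genes named were chosen after their values were seen, as were the gene families. Ear11, Lilrb4 and Ahsp of the lists were not analysed here, and some other members are counted with their lists but not reported by name here.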

Additional observations from a re-analysis of the deposited data

How the results depend on the processing

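Of the 5716 vehicle calls, 0 turned direction in the 14 alternatives, and the count stayed between 4970 and 6180 in 13 of them. Leaving out 1 vehicle library gave 4970 to 5219 calls, and 2233 to 2311 at 2-fold or more. Fitting all 48 libraries together, which tests 13815 genes, left 3252 vehicle calls (1987 higher and 1265 lower) and 3540 in the AP-3-84 libraries; the cause was not tested. Requiring 2-fold left 2352 calls (1714 higher, 638 lower). The AP-3-84 count was 5551 to 6566 when 1 of its libraries was left out. Same-numbered vehicle libraries of the 2 groups did not deviate together (correlations of -0.204, -0.151 and -0.105 over 8804 genes). That does not settle whether they shared a day or handling, which the labels do not say. A replicate block gave 5423 vehicle calls, 2273 at 2-fold or more, and 5891 in the AP-3-84 libraries. Without ascites AP-3-84 replicate 1, an alternative added after seeing that this library stood apart, there were 6044 vehicle calls. Medians of the resident macrophage (-0.08) and apoptotic uptake lists turned positive with scaling by total counts (0.02 and 0.09). Leaving out thio replicate 1 moved the log2 fold change of Krt19 from 7.39 to 8.91. For genes with 0 counts in a group only a lower bound of the fold is given, with that group set to 3 counts in all. With few counts in a group, up to 3, the fold is only loosely bounded. Genes with few counts in both groups were not tested, and differences there were not detectable at this depth.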

Other observations

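Several gene families whose members lie side by side in the genome also differed between the groups. They were picked after their values were seen, so their counts describe them only. Of the Ly6 surface proteins with enough counts 5 of 5 were higher in ascites, and of the Schlafen family 7 of 7. The 5 are those of 17 Ly6 genes that could be tested, and Ly6c1, with 87 counts against 0, could only be called higher. Slfn4 stood at 309, 338 and 297 CPM in ascites and at 7.02, 5.83 and 5.59 CPM in thio libraries, and Slfn5 at 667, 681 and 597 and 268, 275 and 282 CPM. Of the Ifi200 family, which holds sensors of DNA, 12 of 13 tested were higher, Mndal among them at 708, 691 and 571 against 87.9, 83.1 and 83.4 CPM. Of the Ms4a membrane proteins 6 of 10 tested were higher and 1 lower, with Ms4a6c at 1096, 1116 and 1014 CPM against 157, 149 and 160.5 CPM and Ms4a7 at 532, 573 and 516 CPM against 312, 294 and 298 CPM. The formyl peptide receptors Fpr1 and Fpr2, which sense bacterial and mitochondrial peptides, stood at 63.9, 54 and 60.3 against 2.17, 1.22 and 0.597 CPM and at 126, 121 and 113 against 2.43, 1.03 and 0.976 CPM. Background shares were 20.3% of tested genes higher and 13.4% lower.

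Adhesion and Fc receptor genes gave a last contrast. Of 26 integrin and adhesion genes tested 8 were higher in ascites and 7 lower, against 20.3% and 13.4% of all genes tested. Itgal, a chain of the leukocyte integrin LFA-1, stood at 158, 172 and 186 CPM in ascites and 67.5, 71.5 and 57 CPM in thio libraries. Alcam, an adhesion molecule of the immunoglobulin family, stood at 124, 128 and 123 against 322, 314 and 323 CPM, and Itgb3, the integrin β3 chain, at 2.58, 1.63 and 2.33 against 8.55, 10.1 and 9.71 CPM. Of 8 Fc receptor genes tested 6 were higher and 1, Fcgr3, was lower (-0.35), while Fcgr4 stood at 75.8, 73.7 and 84.4 against 19.2, 17.1 and 14.5 CPM. In the list of lipid efflux and of genes driven by LXR and PPAR 7 of 28 were higher and 10 lower, and the share higher is near that of all genes tested. The cholesterol exporter gene Abca1 stood at 169, 162 and 155 CPM in ascites and 84.2, 91.8 and 95.4 CPM in thio libraries. Dendritic cell markers summed to 386 to 398 CPM in ascites and 240 to 249 CPM in thio libraries, with Bst2, which is also on the interferon list, at 130.0, 135 and 123 against 11.4, 8.5 and 8.73 CPM. Bst2 made up most of the difference between the sums. Of 10 dendritic cell markers tested, 5 were called higher in ascites, 1 (Cd24a) was called lower and 4 were not called.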
